A study of Mus musculus with 18 samples.

Results

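The data described here are the levels of 9 collagen genes in cardiac fibroblasts of newborn mice. The genes encode chains of collagen VI (Col6a1, Col6a2, Col6a3 and Col6a6), of collagen VIII (Col8a1 and Col8a2) and of the fibril-associated collagens XII, XIV and XVI (Col12a1, Col14a1 and Col16a1). They were chosen by name, as collagens outside the fibrillar and basement membrane classes, and are 9 of the 55453 gene symbols in the count table. All 9 were among the 16170 genes with enough counts to be tested.

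The study asked how fibroblasts differ between an age at which the mouse heart regenerates (postnatal day 2, P2) and one at which it no longer does (P10), and how they respond to removal of the apex. From the apical portion of C57BL/6J pups' ventricles, GFP+ cells were collected by flow sorting, and 18 RNA libraries were sequenced, 3 in each of 6 groups. All groups share the Tcf21-MerCreMer and Rosa-mTmG alleles and a tamoxifen injection at P1, which switches on GFP in cells that express Tcf21, a fibroblast and epicardial transcription factor, and in their descendants. The P2 baseline and P10 baseline groups were un-manipulated, the P2 sham +3 days and P10 sham +3 days groups had sham surgery at that age and were collected 3 days later, and the P2 resected +3 days and P10 resected +3 days groups had the apex resected instead. The sort therefore holds a lineage marked at P1 and not a cell state, and neither the sex nor the number of pups behind a library is given in the sources used here. Since nothing states that the 3 libraries of a group came from separate animals, p-values measure the spread between these libraries, which may be partly technical.

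Collagen VI forms beaded microfibrils around cells, from chains alpha1 and alpha2 joined by alpha3 or by one of its relatives, among them alpha6 (Col6a6). Collagen VIII is a short-chain collagen that assembles into networks and is made by endothelial cells, smooth muscle and fibroblasts of the vessel wall and heart. Collagens XII and XIV lie on the surface of collagen I fibrils, bind decorin and other matrix proteins and influence fibril spacing and tissue stiffness. Collagen XVI is a minor member of the same fibril-associated class. Collagen XII is known as a collagen of growing, load-bearing and healing connective tissue, and collagen XIV as one of more mature tissue.

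The depth of a library, as reads counted on genes, was 10462737 to 22980554. Levels are CPM values, that is counts divided by the library size after TMM scaling and brought to a common size. The 8 fibroblast markers listed for this work (Tcf21, Pdgfra, Ddr2, Dcn, Lum, Gsn, Mfap5 and Dpt) were detected in every group, with a summed level of 12777 to 44091 CPM over the libraries. The summed level was 158 to 1687 CPM for 11 cardiomyocyte markers, 8.34 to 1031 CPM for 12 macrophage markers, 236 to 827 CPM for 9 endothelial markers, 542 to 1955 CPM for 9 mural cell markers, 854 to 1868 CPM for 9 epicardial markers and 154 to 433 CPM for 6 valve markers. In bulk RNA, fewer cells of a type and less RNA per cell cannot be told apart.

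The genes lie on 6 chromosomes of GRCm38 in the GENCODE M21 annotation, and all are protein-coding. Col6a1 (ENSMUSG00000001119.7, chr10:76708792-76726168) and Col6a2 (ENSMUSG00000020241.13, chr10:76595762-76623630) lie on the same (minus) strand with 85161 bases between them and 0 protein-coding genes in that gap. Col6a3 (ENSMUSG00000048126.16) is at chr1:90765923-90843971 on the minus strand. Col6a6 (ENSMUSG00000043719.14) is at chr9:105687809-105828160 on the minus strand, and 63 of its exon bases (0.687%) also belong to Gm38314, an unclassified transcript on the other strand whose reads cannot be told apart from those of Col6a6. Col8a1 (ENSMUSG00000068196.5) is at chr16:57624258-57754737 on the minus strand, and Col8a2 (ENSMUSG00000056174.8) is at chr4:126286793-126314330 on the plus strand. Col12a1 (ENSMUSG00000032332.17, chr9:79598991-79718831, minus strand) has 15228 exon bases, the most of the 9 genes, and Col6a1 has the fewest, 4380. Col14a1 (ENSMUSG00000022371.16) is at chr15:55307750-55520803 and Col16a1 (ENSMUSG00000040690.15) at chr4:130047840-130099283, both on the plus strand.

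Promoter sequences from RefSeq (GRCm38.p6), 250 bases before to 50 bases after a transcript's start, were at hand for 7 of the 9 genes. Those of the neighbours Col6a1 and Col6a2 and of both collagen VIII genes are shown, because each pair encodes chains of 1 collagen and its members can be compared in the expression data that follow. Capitals mark matches on either strand to 4 motifs: the GC box GGGCGG, the TATA box TATAAA, the AP-1 motif TGANTCA and the TEAD motif GGAATG. RefSeq gives 2 starts for Col6a2; the upstream one lies at the start of the GENCODE gene. All are printed 5′ to 3′ along the gene's strand.
Col6a1, chr10:76725995-76726294, minus strand: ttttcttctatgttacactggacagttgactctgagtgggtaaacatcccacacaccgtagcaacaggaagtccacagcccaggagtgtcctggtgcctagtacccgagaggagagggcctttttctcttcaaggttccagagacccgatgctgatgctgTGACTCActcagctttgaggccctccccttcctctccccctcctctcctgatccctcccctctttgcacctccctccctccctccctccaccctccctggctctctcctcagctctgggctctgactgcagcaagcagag
Col6a2, chr10:76623581-76623880, minus strand, upstream start: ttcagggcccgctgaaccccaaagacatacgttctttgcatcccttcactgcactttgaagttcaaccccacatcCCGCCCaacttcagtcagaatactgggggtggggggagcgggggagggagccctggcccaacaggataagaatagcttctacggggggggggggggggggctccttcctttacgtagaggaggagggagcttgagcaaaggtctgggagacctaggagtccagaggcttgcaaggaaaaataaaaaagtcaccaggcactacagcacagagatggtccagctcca
Col6a2, chr10:76623355-76623654, minus strand, downstream start: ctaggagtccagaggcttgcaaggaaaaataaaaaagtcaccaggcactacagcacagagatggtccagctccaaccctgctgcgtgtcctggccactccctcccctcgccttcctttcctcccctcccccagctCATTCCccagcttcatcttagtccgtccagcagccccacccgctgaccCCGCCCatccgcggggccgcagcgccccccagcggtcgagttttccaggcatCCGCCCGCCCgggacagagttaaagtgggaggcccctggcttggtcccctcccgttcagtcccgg
Col8a1, chr16:57754688-57754987, minus strand: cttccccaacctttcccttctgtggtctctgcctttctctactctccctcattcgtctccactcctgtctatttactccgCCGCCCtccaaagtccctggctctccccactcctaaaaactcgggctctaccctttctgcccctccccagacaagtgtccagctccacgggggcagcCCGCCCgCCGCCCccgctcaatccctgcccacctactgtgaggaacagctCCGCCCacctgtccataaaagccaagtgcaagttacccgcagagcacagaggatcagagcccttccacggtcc
Col8a2, chr4:126286544-126286843, plus strand: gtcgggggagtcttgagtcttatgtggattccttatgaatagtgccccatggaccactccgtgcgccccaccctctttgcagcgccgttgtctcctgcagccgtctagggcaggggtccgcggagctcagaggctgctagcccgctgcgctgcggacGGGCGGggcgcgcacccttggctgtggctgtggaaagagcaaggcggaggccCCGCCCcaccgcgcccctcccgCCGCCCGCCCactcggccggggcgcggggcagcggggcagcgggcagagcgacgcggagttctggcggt

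The promoters of these chains differ in their letters. A GC box was found in 5 of the 7 genes (Col6a2, Col6a6, Col8a1, Col8a2 and Col16a1) and in 35.7% of 32851 promoters of the same length. The TATA box was found in 0 of the 7 genes and in 13.6% of all promoters. The AP-1 motif was found in Col6a1 alone of the 7 (7.81% of all promoters), and the TEAD motif, as CATTCC on the other strand, in Col6a2 alone (14.7%). The run CCGCCCGCCC in the downstream Col6a2 promoter and in Col8a2 holds 2 overlapping boxes.

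The fibroblasts expressed the 9 genes over a wide range. Collagen VI supplied most of the signal: its 4 genes held 77.1% to 88.6% of the members' counts in each library, and the 9 genes together held 0.674% to 1.41% of all counts. Divided by exon length, the mean level over the 18 libraries was 922 ± 193 CPM per kilobase (SD) for Col6a1 and 434 ± 110 for Col6a2. Col14a1 followed at 154 ± 42.4 CPM per kilobase, then Col6a3 at 78.3 ± 32.2, Col16a1 at 56.5 ± 20.1 and Col6a6 at 24.1 ± 11.9. Col8a1 was at 16.7 ± 12.4 CPM per kilobase, Col8a2 at 6.81 ± 3.35 and Col12a1 at 5.49 ± 4.18. Most neighbours in this order stood the same way round in 18 of 18 libraries. The order of the other 3 pairs varied between libraries and was not tested. Col6a3 was above Col16a1 in 5 of 9 libraries of the P2 groups and 9 of 9 of the P10 groups. Col6a6 was above Col8a1 in 8 of 9 at P2 and 3 of 9 at P10, and Col8a2 was above Col12a1 in 2 of 9 at P2 and 9 of 9 at P10.

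**Figure D1:**
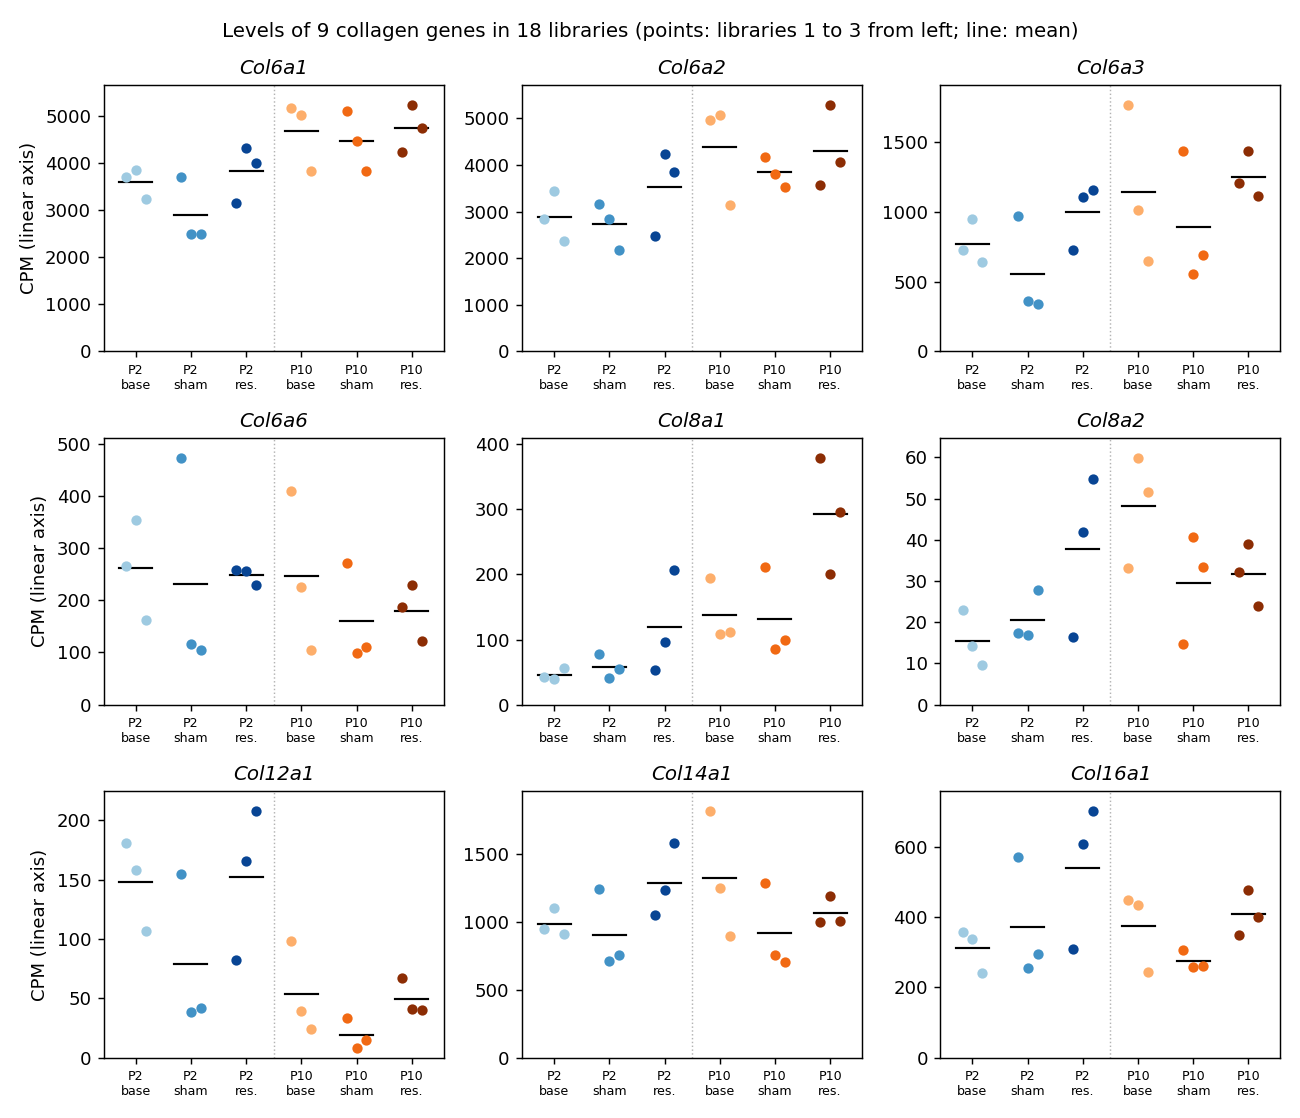
Levels (CPM, linear axis from 0) of the 9 collagen genes in the 6 groups; each point is a library, in replicate order from left to right, each line is the mean of 3, and res. stands for resected. Col12a1 lies lower and Col8a1 higher in the P10 groups, while in Col6a3, Col6a6 and Col12a1 the libraries of several groups spread widely, baseline and sham groups among them.

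The libraries of a group also differed in a way that follows transcript length, and this touches the long collagen genes. For each library, the median deviation from the gene means was computed for genes in the longest and the shortest of 10 classes of exon length, and the difference (the length index, log2) was 0.80, -1.15 and -0.33 in the P2 sham +3 days libraries. It was 0.94, -0.16 and -0.59 at P10 baseline and 0.79, -0.63 and -0.53 in the P10 sham +3 days libraries. At P2 baseline it was 0.46, 0.62 and -0.15. The resected libraries were more alike, at 0.21, 0.16 and 0.27 at P2 and -0.13, -0.06 and 0.08 at P10.

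Levels of the long genes moved with this index. When each library's trend on exon length was subtracted from log2 CPM, the pooled SD within groups fell from 0.831 to 0.464 for Col12a1, from 0.580 to 0.295 for Col6a3 and from 0.778 to 0.554 for Col6a6. For the shortest genes it hardly moved, from 0.225 to 0.241 for Col6a1 and from 0.620 to 0.592 for Col8a2. The source of the trend was not tested. Results are therefore given from the counts as deposited, and where it matters also from a fit with the trend removed by an offset, which was added after the values had been seen.

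**Figure D2:**
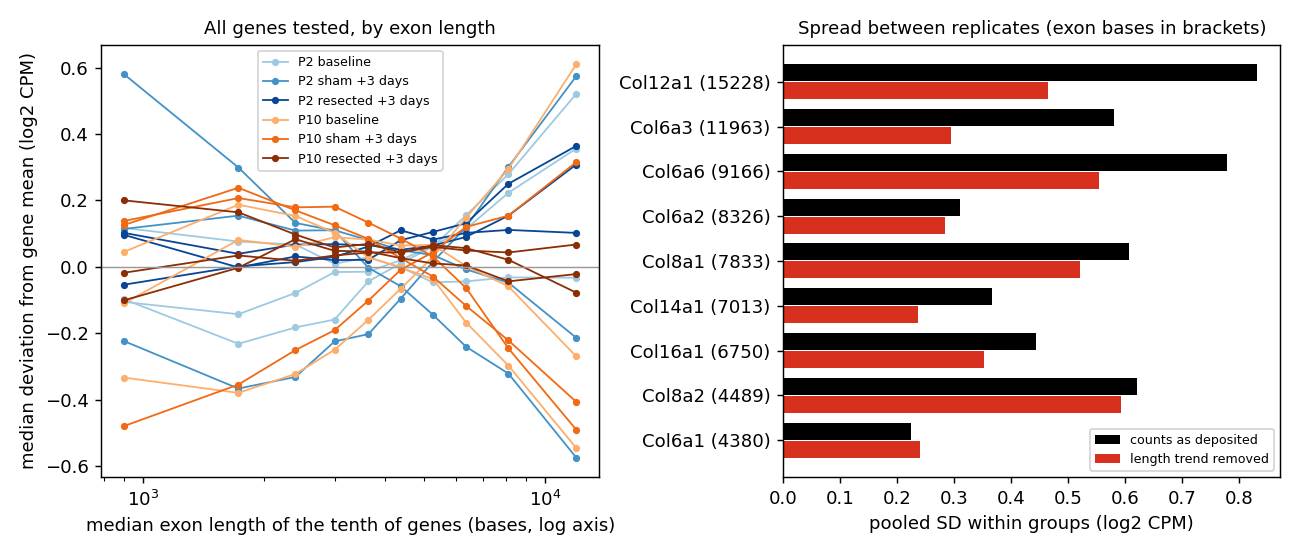
Left: median deviation from the gene mean (log2 CPM) of all genes tested, in 10 classes by exon length (log axis), with 1 line per library coloured by group. Right: pooled SD of log2 CPM within groups for each collagen gene, with exon bases in brackets, before (black) and after (red) the trend on length was subtracted; the bars of Col12a1 and Col6a3 shorten from 0.831 to 0.464 and from 0.580 to 0.295.

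The first comparison asked which of these collagens differ between the windows, taking the 9 libraries of the P10 groups (the P10 window) against the 9 of the P2 groups (the P2 window). Counts were tested with the quasi-likelihood F-test of edgeR in a single fit of the 6 groups, SE is the standard error of a log2 fold change, and a gene passed (was called) when its p, adjusted over all genes tested by the Benjamini-Hochberg method, was under 0.05. In the P10 window the fibroblasts had more Col6a1, Col6a2 and Col8a1 RNA and less Col12a1 RNA than in the P2 window. These 4 of 9 genes passed, 3 higher and 1 lower, where 13.5% of the 16170 genes tested passed (7.11% higher and 6.39% lower). The median log2 fold change was 0.44 over the 9 genes and -0.06 over all genes tested. The levels of the windows overlapped for each of the 9 genes, and 2.51% of all genes tested had windows that did not overlap.

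Col6a1, the alpha1 chain of collagen VI, was the member with the highest level. Its CPM in the P2 window had a lowest value of 2499, a median of 3707 and a highest value of 4322, and in the P10 window a lowest value of 3835, a median of 4750 and a highest value of 5241. The windows overlapped between 3835 and 4322 CPM. Col6a1 rose by a log2 fold change of 0.44 (SE 0.12, edgeR adjusted p = 0.0186), or 1.35-fold.

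Col6a2 encodes the alpha2 chain and lies beside Col6a1. Its CPM in the P2 window was 2168 at the lowest, 2851 at the median and 4242 at the highest, and in the P10 window 3144, 4069 and 5294. The high P2 values came from the resected libraries 2 and 3, at 4242 and 3856. Between the windows it rose by 0.46 on the log2 scale (SE 0.14, edgeR adjusted p = 0.0385). This call was lost without any 1 of 12 of the 18 libraries, at log2 fold changes of 0.40 to 0.53 and adjusted p up to 0.0946 over all 18 omissions.

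Col6a3, the large alpha3 chain, pointed the same way with more spread. Its CPM was 342 to 1160 in the P2 window, with a median of 728, and 555 to 1768 in the P10 window, with a median of 1115. Its log2 fold change, 0.53 (SE 0.25, edgeR adjusted p = 0.170), does not pass. It was 0.48 with voom (limma adjusted p = 0.0337), 0.57 with no filter on low counts (edgeR adjusted p = 0.00937) and 0.75 without P2 sham library 1 (edgeR adjusted p = 0.0268), each of which passed, and 0.35 without P10 sham library 1 (edgeR adjusted p = 0.331). With the length trend removed it was 0.74 (edgeR adjusted p = 0.000918), and the count of members passing became 5 of 9 where 16.5% of all genes passed.

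For Col6a6, an alternative to the alpha3 chain, no difference was detected. Its CPM was 104 to 473 in the P2 window and 98.9 to 409 in the P10 window, with medians of 256 and 187. Its log2 fold change was -0.36 (SE 0.32, edgeR adjusted p = 0.518). The value rested on single libraries, at -0.00 without P2 sham library 1 and -0.56 without P10 sham library 1.

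Within a library, no change in the proportions of the alpha1, alpha2 and alpha3 chains was detected between the windows. The log2 ratio of Col6a2 to Col6a1 counts was -0.16 ± 0.12 in the P10 window and -0.19 ± 0.20 in the P2 window (SD, n = 9 each), a difference of 0.03 (two-sided exact permutation test within stages, p = 0.747, adjusted p = 0.854 over 8 ratio tests). For Col6a3 to Col6a1 the log2 ratio was -2.17 ± 0.46 and -2.24 ± 0.38, a difference of 0.08 (exact permutation test, p = 0.667, adjusted p = 0.854). With the length trend removed the latter difference was 0.32 (exact permutation test, adjusted p = 0.00900), so this comparison depends on the treatment of length.

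Col8a1 was the member with the largest rise between the windows. Its CPM was 39.6 at the lowest, 54.5 at the median and 206 at the highest in the P2 window, and 85.4, 195 and 379 in the P10 window. The P2 resected libraries 2 and 3, at 96.3 and 206, were the only P2 libraries inside the P10 range. Between the windows Col8a1 rose by 1.36 on the log2 scale (SE 0.26, edgeR adjusted p = 0.00165), or 2.57-fold, and it stayed between 1.19 and 1.58 whichever library was left out.

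Col8a2, the other collagen VIII chain, was 9.50 to 54.8 CPM in the P2 window and 14.7 to 59.9 CPM in the P10 window. For Col8a2 the log2 fold change was 0.63 (SE 0.26, edgeR adjusted p = 0.122). The log2 ratio of Col8a2 to Col8a1 was -2.29 ± 1.19 in the P10 window and -1.57 ± 0.57 in the P2 window (SD, n = 9 each), and its difference of -0.72 did not pass (exact permutation test, p = 0.119, adjusted p = 0.238 over 8 ratio tests). It was -0.44 without P10 sham library 1.

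Col12a1, a fibril-associated collagen, was the only member called lower. Its CPM was 39.0 at the lowest, 155 at the median and 208 at the highest in the P2 window, and 8.08, 39.1 and 98.4 in the P10 window. Only the P2 sham libraries 2 and 3 (39.0 and 42.3) and the P2 resected library 1 (82.2) lay below the highest P10 value, that of P10 baseline library 1. Col12a1 changed by -1.71 on the log2 scale (SE 0.35, edgeR adjusted p = 0.00299), a level 3.26-fold lower. It was -1.42 with the length trend removed and -1.96 to -1.39 without any 1 library.

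Col14a1 belongs to the same class, and no difference was detected. It was 716 to 1582 CPM in the P2 window and 706 to 1817 CPM in the P10 window, with a log2 fold change of 0.06 (SE 0.17, edgeR adjusted p = 0.883). Col16a1 was 242 to 702 CPM and 245 to 478 CPM, with a log2 fold change of -0.19 (SE 0.19, edgeR adjusted p = 0.569), or -0.05 without P2 sham library 1. For both genes the lowest values of the windows lay close together.

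The balance between collagen XII and XIV RNA differed between the windows. The log2 ratio of Col14a1 to Col12a1 counts was 2.39, 2.80 and 3.10 at P2 baseline, 3.00, 4.20 and 4.16 in P2 sham +3 days and 3.67, 2.90 and 2.93 in P2 resected +3 days. It was 4.21, 5.0 and 5.20 at P10 baseline, 5.26, 6.54 and 5.52 in P10 sham +3 days and 3.89, 4.85 and 4.64 in P10 resected +3 days. At each stage the 3 P10 libraries stood above the 3 P2 libraries. The difference between the windows was 1.77 (5.01 ± 0.77 against 3.24 ± 0.63, SD, n = 9 each), or 3.42-fold (two-sided exact permutation test within stages, p = 0.000250, the smallest that it can give, adjusted p = 0.00200 over 8 ratio tests). It was 1.54 with the length trend removed (exact permutation test, adjusted p = 0.00400).

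**Figure D3:**
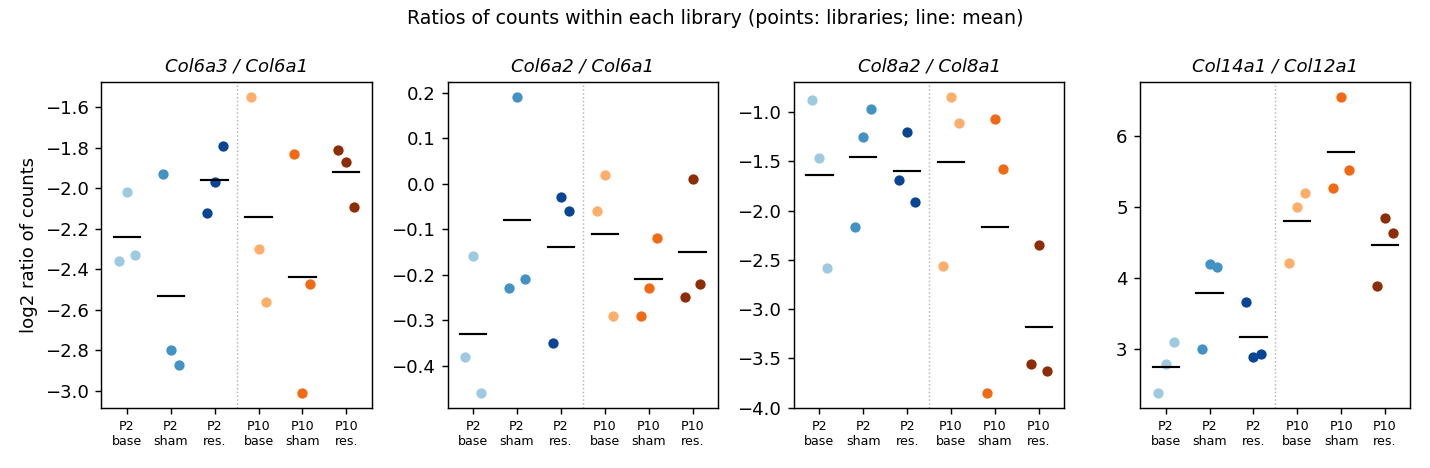
Log2 ratio of the counts of 2 collagen genes within each library (points) with the mean of 3 (lines), in the 6 groups; res. stands for resected. The Col14a1 to Col12a1 ratio is higher in each P10 group than in the P2 group of the same stage, while Col6a2 to Col6a1 stays between -0.46 and 0.19.

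The window comparison was then split into its 3 stages, each with 3 libraries against 3, which share the libraries of the pooled comparison. At baseline Col8a1, Col8a2 and Col12a1 did not overlap between the ages, where 22.4% of all genes did not. Col8a1 was 42.0, 39.6 and 56.9 CPM at P2 baseline and 195, 108 and 112 CPM at P10 baseline. Col8a2 was 22.9, 14.2 and 9.50 CPM at P2 baseline and 33.1, 59.9 and 51.7 CPM at P10 baseline. Both collagen VIII chains were higher in each P10 library, with log2 fold changes of 1.58 (SE 0.45, edgeR adjusted p = 0.0565) and 1.63 (SE 0.46, edgeR adjusted p = 0.0553).

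Col12a1 was 181, 158 and 107 CPM at P2 baseline and 98.4, 39.1 and 24.4 CPM at P10 baseline. Its log2 fold change was -1.46 (SE 0.60, edgeR adjusted p = 0.197), and without P10 baseline library 1 it was -2.22 and passed (edgeR adjusted p = 0.0480). By this test 0 of 9 members passed at baseline, where 4.38% of all genes did, while 4 had an unadjusted p under 0.05 (18.7% of all genes). DESeq2 called 2 members, Col8a1 and Col8a2, and 9.89% of all genes. With the length trend removed edgeR called 5 members, Col6a2, Col6a3, Col8a1, Col8a2 and Col12a1, and 6.38% of all genes.

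After sham surgery Col6a1, Col6a2 and Col8a1 were higher and Col12a1 lower at P10 without overlap, 4 members where 16.7% of all genes did not overlap. Col6a1 was 3714, 2502 and 2499 CPM in P2 sham +3 days and 5102, 4478 and 3835 CPM in P10 sham +3 days. Col12a1 was 155, 39.0 and 42.3 CPM in P2 sham +3 days and 33.6, 8.08 and 15.3 CPM in P10 sham +3 days. The P2 sham library 1 stood far above the others of its group, and it is the one with a length index of 0.80. The Col12a1 log2 fold change was -2.05 (SE 0.62, edgeR adjusted p = 0.0859). It was -1.10 without that library (edgeR adjusted p = 0.356) and -2.74 without P10 sham library 1, which passed (edgeR adjusted p = 0.0496). With the length trend removed it was -1.77 and passed (edgeR adjusted p = 0.00639), where 4.21% of all genes did. By edgeR on all libraries and the counts as deposited, 0 of 9 members passed, where 3.18% of all genes did. Of the members 3 had an unadjusted p under 0.05 (16.3% of all genes) and DESeq2 called 1 (7.37% of all genes).

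After resection Col12a1 alone was separated, at 82.2, 166 and 208 CPM in P2 resected +3 days and 67.4, 41.3 and 40.2 CPM in P10 resected +3 days, where 23.3% of all genes did not overlap. Its log2 fold change was -1.61 (SE 0.61, edgeR adjusted p = 0.358). Col8a1 was 53.1, 96.3 and 206 CPM at P2 and 379, 200 and 296 CPM at P10, which overlap at about 200 CPM, with a log2 fold change of 1.30 (SE 0.45, edgeR adjusted p = 0.274), or 1.96 without P2 resected library 3. Again 0 of 9 members passed, where 0.860% of all genes did, and 2 had an unadjusted p under 0.05 (8.77% of all genes). DESeq2 called 0 members here and 3.07% of all genes.

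For Col8a2 the fitted age difference was largest at baseline. Its log2 fold change between P10 and P2 was 1.63 for the baseline groups, 0.52 for the sham groups and -0.25 for the resected groups. Single libraries moved the later values: that of the sham groups was 0.22 without P10 sham library 2 and 0.84 without P10 sham library 1, and that of the resected groups was -0.61 without P2 resected library 1 and 0.12 without P2 resected library 3. At baseline it stayed between 1.38 and 2.02 whichever library was left out. The P2 resected libraries were at 16.5, 41.9 and 54.8 CPM and the P10 resected libraries at 32.2, 39.1 and 23.9 CPM. The difference between the age effects after resection and at baseline was -1.88 (SE 0.65, unadjusted p = 0.00951, edgeR adjusted p = 0.564), and this contrast was chosen after the values had been seen. It does not pass over all genes, of which 0.0557% were called and 5.90% had an unadjusted p under 0.05. Between sham surgery and baseline the age effects differed by -1.12 (SE 0.64, edgeR adjusted p = 0.863). Of the cell markers, those of mural cells had median log2 fold changes between the ages of 1.26 at baseline (4 of 9 called higher, where 4.38% of all genes were called), 0.38 after sham surgery (1 called higher) and -0.08 after resection (0 called). The summed level of the mural markers was 542 to 902 CPM at P2 baseline and 1135 to 1955 CPM at P10 baseline, 595 to 1476 and 945 to 1343 CPM after sham surgery, and 866 to 1363 and 887 to 1369 CPM after resection. For the age effect after resection minus that at baseline the mural median was -1.21, with 1 marker, Vtn, called lower, and the median of the 6 valve markers was -1.54 with 0 called. The other medians were -0.43 for activated fibroblast, 0.03 for fibroblast, 0.22 for macrophage and 0.52 for cardiomyocyte markers. They were 0.98 for endothelial and 4.12 for epicardial markers, again with 0 called in each list. Of the 9 epicardial markers, 5 had no count at P10 baseline. The part of these markers in the Col8a2 values was not tested.

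**Figure D4:**
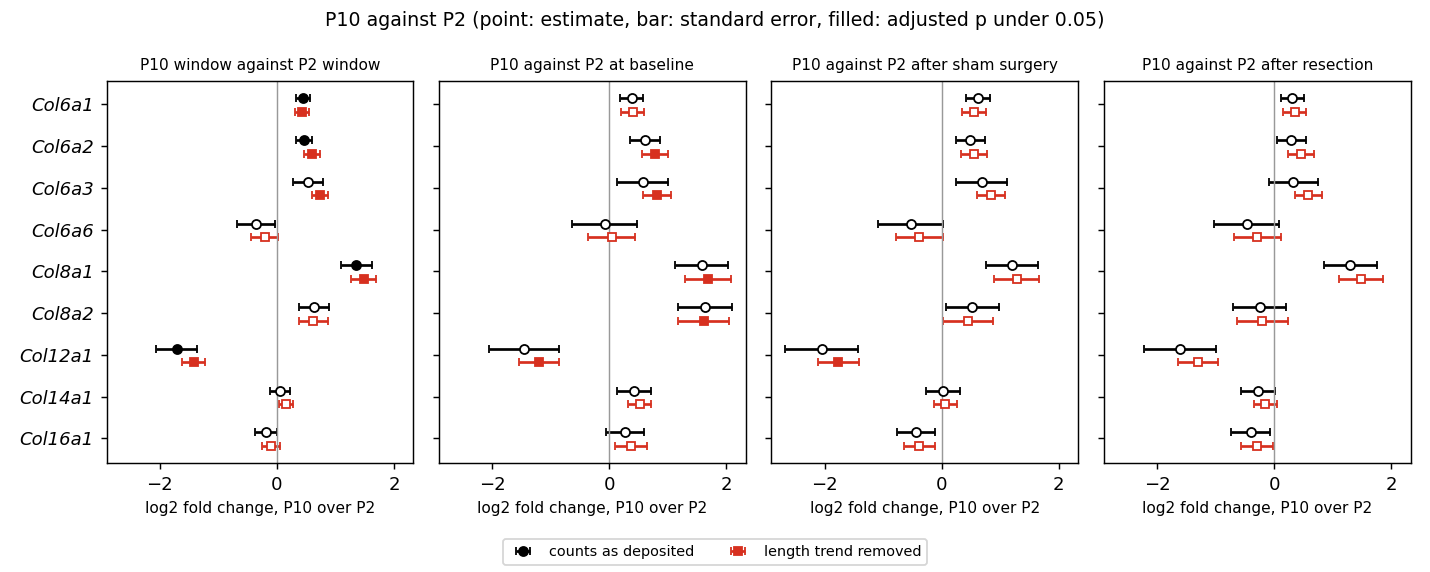
Log2 fold change of each collagen gene, P10 over P2, in the pooled windows and in the 3 stages; points are estimates, bars are standard errors, and filled points have an adjusted p under 0.05. Black circles are the fit of the counts as deposited and red squares the fit with the length trend removed; Col8a1 lies right of 0 and Col12a1 left of 0 in all 4 panels, and Col8a2 moves from 1.63 at baseline to -0.25 after resection.

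The second question was the response to resection, taken against sham surgery at the same age. No member passed the test at either age. At P2 0 of 9 members passed by edgeR, as did 0.00% of all genes, and 1 had an unadjusted p under 0.05 (4.51% of all genes). At P10 0 of 9 passed, again with 0.00% of all genes, and 2 had an unadjusted p under 0.05 (4.09% of all genes). DESeq2 called 0 members at both ages and 0.155% and 0.241% of all genes. The fitted log2 fold changes were above 0 for 9 of 9 members at P2 (0.10 to 1.05) and at P10 (0.08 to 1.38), where 49.9% and 52.0% of all genes were above 0. When 1 library was left out, 8 to 9 members were above 0 at P2 and 6 to 9 at P10.

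Col8a1 and Col12a1 had the largest fitted log2 fold changes at both ages, 1.05 and 0.95 at P2 and 1.14 and 1.38 at P10. At P2 the value for Col8a1 was 0.38 without P2 resected library 3 and that for Col12a1 1.91 without P2 sham library 1, and at P10 Col12a1 was at 2.08 without P10 sham library 1. Col8a2 was next at P2, at 0.87, or 0.51 without P2 resected library 3. It was 0.11 at P10 and -0.22 without P10 sham library 1, and the difference between the ages did not pass (-0.77, SE 0.64, and -0.40 without P2 resected library 3). Col8a1 went from 77.7, 40.2 and 54.5 CPM after sham surgery to 53.1, 96.3 and 206 CPM after resection at P2. At P10 it went from 212, 85.4 and 99.3 CPM to 379, 200 and 296 CPM. In each case 1 resected library lay below the highest sham library. Over both ages Col8a1 had a log2 fold change of 1.09 (SE 0.32, unadjusted p = 0.00294, edgeR adjusted p = 0.546).

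Col12a1 at P10 went from 33.6, 8.08 and 15.3 CPM after sham surgery to 67.4, 41.3 and 40.2 CPM after resection, and the groups did not overlap. Col16a1 at P10 went from 308, 259 and 260 CPM to 350, 478 and 400 CPM, also without overlap. These were the 2 of 9 members separated at P10, where 8.68% of all genes were. At P2 Col12a1 went from 155, 39.0 and 42.3 CPM to 82.2, 166 and 208 CPM, which overlap. Over both ages the log2 fold change of Col12a1 was 1.17 (SE 0.42, unadjusted p = 0.0135, edgeR adjusted p = 0.721) and that of Col16a1 0.55 (SE 0.23, unadjusted p = 0.0301, edgeR adjusted p = 0.778). The Col12a1 value was 1.82 with voom (limma adjusted p = 0.0463) and 1.17 with no filter on low counts (edgeR adjusted p = 0.000876). Both passed, where 0.315% and 0.332% of all genes did.

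Col6a3 was the fourth member with an unadjusted p under 0.05 over both ages. At P2 it went from 973, 358 and 342 CPM after sham surgery to 728, 1104 and 1160 CPM after resection. At P10 it went from 1436, 555 and 692 CPM to 1208, 1435 and 1115 CPM. The sham libraries 2 and 3 were low at both ages and library 1 was not. Its log2 fold change over both ages was 0.66 (SE 0.30, unadjusted p = 0.0420, edgeR adjusted p = 0.849), and 1.0 without P2 sham library 1. With voom it was 1.14 and passed (limma adjusted p = 0.0445), where 0.315% of all genes did.

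Over both ages 0 of 9 members passed, as did 0.00% of all genes, and 4 had an unadjusted p under 0.05 (5.78% of all genes), while DESeq2 called 0 members and 0.421% of all genes. The low sham libraries are those with a negative length index. On the log2 scale, the length trend alone differed between resected and sham libraries by 0.31 for Col12a1 and 0.25 for Col6a3. For Col8a1 it differed by 0.15 and for Col16a1 by 0.12. With the trend removed, the log2 fold changes over both ages were 0.98 for Col8a1, 0.54 for Col6a3 and 0.44 for Col16a1. That of Col12a1 was again the largest of the 9 members. The unadjusted p by edgeR was then 0.000326 for Col12a1, 0.00195 for Col8a1, 0.00422 for Col6a3 and 0.0305 for Col16a1. With this offset too 0 of 9 members passed, and the smallest edgeR adjusted p was 0.334, for Col12a1. Of the markers of other cells 0 were called at either age, as for 0.00% of all genes, but several lists had medians away from 0 in either direction, and their part in the collagen values was not tested. The 11 cardiomyocyte markers had a median log2 fold change of -0.82 at P2, where their summed level was 998 to 1316 CPM after sham surgery and 364 to 883 CPM after resection, without overlap. At P10 it was 0.39 (158 to 809 and 216 to 738 CPM). The median log2 fold change of 12 macrophage markers was 1.11 at P2 and 1.01 at P10, and their summed level was 8.34 to 200 CPM in P2 sham +3 days, 68.1 to 507 in P2 resected +3 days, 97.0 to 357 in P10 sham +3 days and 67.7 to 1031 CPM in P10 resected +3 days. For the 9 activated fibroblast markers the median was 0.81 and 0.89, with summed levels of 8885 to 23940 CPM after sham surgery and 16296 to 23244 after resection at P2, and 4937 to 9057 and 7943 to 9694 CPM at P10. At P10 the median was 1.47 for 9 endothelial markers (297 to 513 CPM summed after sham surgery, 337 to 827 after resection) and 3.71 for the 8 epicardial markers tested (914 to 1354 CPM and 1033 to 1868 CPM). Of the 9 epicardial markers, Krt8, Lrrn4 and Muc16 had no count in the P10 sham +3 days libraries, so that this median of fitted values is no bound; Itgam, a macrophage marker, had none in P2 sham +3 days. The medians at P2 and P10 were -0.23 and -0.11 for the fibroblast markers, 0.46 and 0.02 for mural and 0.50 and 0.38 for valve markers, and at P2 they were 0.24 for endothelial and -0.15 for epicardial markers. The 9 fibrillar collagens had medians of 0.82 at P2 and 0.40 at P10, and 0 of them were called.

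Whether the response differed by age was tested as the effect at P10 minus that at P2. By edgeR 0 of 9 members were called (0.00% of all genes) and 0 had an unadjusted p under 0.05 (2.88% of all genes), and DESeq2 called 0 members and 0.148% of all genes. This difference was 0.09 (SE 0.62) for Col8a1 and 0.44 (SE 0.84) for Col12a1 on the log2 scale, and -0.52 for Col12a1 without P2 sham library 1.

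Ratios within a library were tested in the same design. The log2 ratio of Col14a1 to Col12a1 was 3.81 ± 0.83 in the resected and 4.78 ± 1.25 in the sham libraries (SD, n = 6 each), a difference of -0.97 (two-sided exact permutation test within ages, p = 0.0200, adjusted p = 0.0800 over 8 ratio tests). The log2 ratio of Col6a3 to Col6a1 was -1.94 ± 0.14 in the resected and -2.49 ± 0.50 in the sham libraries (SD, n = 6 each), a difference of 0.55 (exact permutation test, p = 0.0600, adjusted p = 0.160). That of Col6a2 to Col6a1 was -0.15 in both (exact permutation test, p = 1.00, adjusted p = 1.00). For Col8a2 to Col8a1 the log2 ratio was -2.39 ± 1.00 in the resected and -1.82 ± 1.09 in the sham libraries (SD, n = 6 each). This difference of -0.57 did not pass (exact permutation test, p = 0.275, adjusted p = 0.440). It ranged from -1.0 to -0.3 when 1 library was left out. The smallest p this design allows is 0.00500 (exact permutation test). With the length trend removed the first of these differences was -0.79 and the second 0.36, each with an adjusted p = 0.0400 (exact permutation test).

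**Figure D5:**
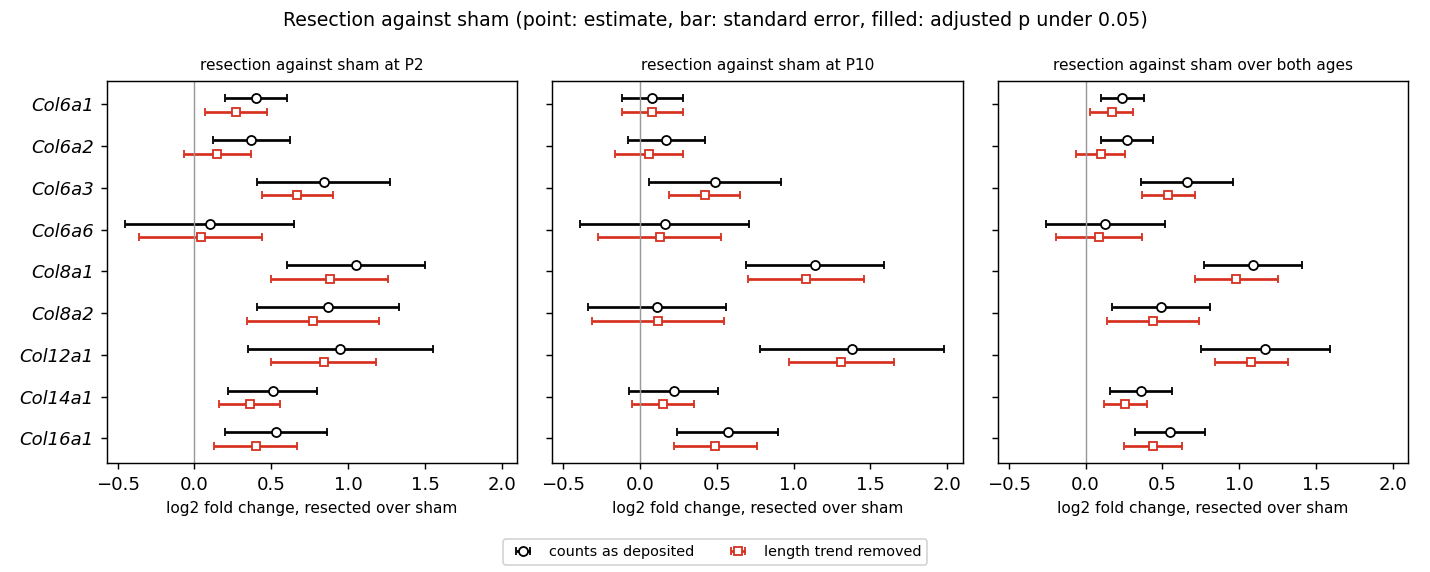
Log2 fold change of each collagen gene, resected over sham, at P2, at P10 and over both ages; points are estimates, bars are standard errors, and a filled point would have an adjusted p under 0.05. Black circles are the fit of the counts as deposited and red squares the fit with the length trend removed; all 9 black circles lie right of 0 in each panel and none is filled.

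The 4 groups without resection follow the genes through age in the order P2 baseline, P2 sham +3 days, P10 baseline and P10 sham +3 days, although surgery and 3 days of growth change together in the sham steps and cannot be told apart. The mean CPM of Col12a1 was 148 ± 37.7, 78.7 ± 65.9, 53.9 ± 39.2 and 19 ± 13.1 (SD, n = 3 each), a lower mean at each step. No step passed the test. The log2 fold changes of the steps were -0.91 (adjusted p = 0.780), -0.54 (adjusted p = 0.759) and -1.51 (adjusted p = 0.648, all by edgeR), and each rests on single libraries. The first was -1.87 without P2 sham library 1 and -0.58 without P2 sham library 2. The middle value was 0.41 without P2 sham library 1 and -1.31 without P10 baseline library 1, and the last was -0.74 without P10 baseline library 1 and -2.20 without P10 sham library 1. For Col8a1 the means were 46.2 ± 9.37, 57.5 ± 19, 138 ± 48.9 and 132 ± 69.7 CPM (SD, n = 3 each), so that the larger step lay between P2 sham +3 days and P10 baseline.

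In that middle step 0 of 9 members passed, where 1.32% of all genes did, and 5 had an unadjusted p under 0.05 (14.9% of all genes). Col6a1, Col8a1 and Col8a2 were higher without overlap there, 3 members where 6.36% of all genes were. The log2 fold change was 0.69 (SE 0.20, adjusted p = 0.113) for Col6a1 and 1.27 (SE 0.45, adjusted p = 0.196) for Col8a1 by edgeR, and DESeq2 called 1 member (5.04% of all genes). Of the sham steps, that at P2 had 0 members called and 0 with an unadjusted p under 0.05 (0.00% and 7.60% of all genes). That at P10 had 0 called and 1 with an unadjusted p under 0.05 (0.00618% and 7.40% of all genes), and 9 of 9 members had a fitted log2 fold change below 0, from -1.51 to -0.06, where 47.6% of all genes were above 0. When 1 library was left out, 6 to 9 members were below 0. In this step the summed level of the fibroblast markers was 23635 to 28298 CPM at P10 baseline and 34895 to 44091 CPM in P10 sham +3 days, without overlap. That of the activated fibroblast markers was 6403 to 17237 and 4937 to 9057 CPM, and that of the macrophage markers 17.9 to 233 and 97.0 to 357 CPM. The median log2 fold changes were 0.38 for fibroblast, -0.51 for activated fibroblast, 1.06 for macrophage and for epicardial, -0.56 for cardiomyocyte, -0.49 for mural, 0.21 for endothelial and -0.56 for valve markers, with 0 called in each list, and their part in the collagen values was not tested. DESeq2 called 0 members in both, with 0.853% of all genes at P2 and 0.748% at P10.

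Genes that work with these collagens were read from lists between the windows, where 7.11% of all genes tested rose and 6.39% fell. Of 9 fibrillar collagens tested, 2 rose and 1 fell. Col5a3, a chain of the minor fibrillar collagen V, went from 294 ± 132 to 647 ± 173 CPM (SD, n = 9 each), which is 1.21 on the log2 scale (edgeR adjusted p = 8.95e-05). Col3a1, a main fibrillar collagen of fibroblasts, went from 29631 ± 9604 to 45449 ± 8807 CPM (SD, n = 9 each), which is 0.65 on the log2 scale (edgeR adjusted p = 0.00269). Col11a1, a fibrillar collagen of cartilage and growing tissue, went from 91.7 ± 39.2 to 16.9 ± 11.8 CPM and fell by 2.46 on the log2 scale (edgeR adjusted p = 2.80e-05). The list's median log2 fold change was 0.32, against -0.06 over all genes. Of the other collagens of the type VI, VIII and fibril-associated classes, 6 of 9 were tested and 1 passed: Col9a2 fell from 59.7 ± 19.9 to 29.0 ± 14.3 CPM.

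Among 9 matrix partners of these collagens, 4 rose and 0 fell, with a median log2 fold change of 0.52. The counts of each list here stand beside the same shares of all genes, 7.11% called higher and 6.39% lower. Tgfbi, which binds collagen VI, went from 54.5 ± 18.4 to 152 ± 31.0 CPM, which is 1.53 on the log2 scale (edgeR adjusted p = 3.28e-06). The collagen-binding proteoglycans Dcn and Bgn had log2 fold changes of 0.95 and 0.52, and Matn2, a matrix adaptor, 0.43. Of 10 receptors, 2 rose and 0 fell: Antxr2, a receptor that takes up collagen VI, had a log2 fold change of 0.74, and Itga11, a collagen-binding integrin chain, went from 5.25 ± 5.26 to 32.0 ± 11.5 CPM. Of 12 genes of collagen folding and processing, 4 rose and 2 fell. The lysyl hydroxylase Plod1 and the prolyl hydroxylase subunit P4ha2 had log2 fold changes of 0.91 and 1.05, Bmp1, which processes procollagen, 0.68, and the prolyl hydroxylase subunit P4ha3 -0.95.

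Markers of other cells and states also moved between the windows, and their part in the collagen differences was not tested. The counts stand beside the same shares of all genes, 7.11% called higher and 6.39% lower. Of 8 fibroblast markers 4 were called higher and 0 lower, with a summed level of 12777 to 22083 CPM in the P2 groups and 23635 to 44091 CPM in the P10 groups. Of 9 activated fibroblast markers 2 were called higher and 2 lower. Their summed level was 15819 to 21926 CPM at P2 baseline and 6403 to 17237 at P10 baseline, 8885 to 23940 and 4937 to 9057 CPM after sham surgery, and 16296 to 23244 and 7943 to 9694 CPM after resection. Of 9 mural cell markers 4 were called higher and 1 lower, with summed levels that were separated at baseline and overlapped after sham surgery and resection. Of 11 cardiomyocyte markers 0 were called higher and 5 lower, and of 12 macrophage markers 2 were called higher. Of the endothelial (9) and epicardial (8 tested) markers 0 were called, and of the 6 valve markers 1 was called lower. The median log2 fold changes were 0.58 for fibroblast, -0.56 for activated fibroblast, 0.52 for mural and -1.01 for cardiomyocyte markers. They were 1.13 for macrophage, 0.06 for endothelial, -1.32 for epicardial and -0.21 for valve markers. Of the 9 epicardial markers, 5 had no count at P10 baseline.

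The genes most like each called member over the 18 libraries, by Pearson's r of log2 CPM, differed from member to member. For Col6a1 they were Pkd1 (0.931), Dag1 (0.900) and Zhx3 (0.896), and for its neighbour Col6a2 they were Clstn1 (0.927), Mrc2 (0.924) and Ntn1 (0.913). For Col8a1 they were Enpp1 (0.931), Mt1 (0.896) and Fstl1 (0.893). For Col12a1 they were Hnrnpd (0.936), Mical2 (0.931) and Foxp1 (0.931). These points share the 18 libraries, their depth and the length trend: Mical2 and Foxp1 have 15218 and 13751 exon bases, near the length of Col12a1, while Hnrnpd has 7354, and the short Col6a1 has Pkd1 (17415) and Zhx3 (13259) among its 3.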

How the data were processed

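Bulk RNA of 18 libraries was analysed; spatial data were not used here. The authors sorted GFP+ cells, amplified RNA with a SMARTer v4 kit, made Nextera XT libraries and sequenced single ends. Per the submitters' notes, reads were trimmed with fastp 0.20.0, mapped with STAR 2.7.0f to GRCm38.p6 and counted with featureCounts (Subread 1.6.4) on GENCODE M22 exons without strand. The deposited values are these counts, whole numbers without normalization, made by the authors. All count columns were matched to samples by name, and 0 others were present.

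From the counts, edgeR 4.0.16 (R 4.3.3) kept 16170 of 55453 symbols with filterByExpr (minimum count 10, minimum total 15), scaled libraries by TMM and fitted its quasi-likelihood model to all 18 libraries, each group with its own mean. Contrasts (13) were called at Benjamini-Hochberg adjusted p under 0.05. DESeq2 1.42.0, limma 3.58.1 (voom) and other settings were alternatives. Ratios of counts (pseudocount 0.5) were tested by exact permutation within strata. The length trend used medians in 20 bins of exon length. The scripts were tested on simulated data. The members, lists and comparisons were chosen with earlier results of these data known, and named genes are the members, up to 4 genes a list by smallest p and the 3 genes most like each called member. Replicate numbers were not used to pair samples, since not every same-numbered pair of libraries had a correlation of deviations over 0.1. Depth was 10462737 to 22980554 counts, and the lowest count of any member in a library was 125.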

Additional observations from a re-analysis of the deposited data

How the results depend on the processing

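In brackets is the share of all genes tested that each setting called. The 4 calls between the windows (13.5%) became 4 with DESeq2 (18.7%), RLE normalization (13.6%) or the replicate block (17.0%), 5 with voom (28.3%), 5 with the length offset (16.5%), 6 with no filter (9.54% of 28906 genes), and 3 to 5 when 1 library was left out (9.73% to 17.4%). Col6a1, Col8a1 and Col12a1 passed under each of these; Col6a2 was lost without 12 of the 18 libraries.

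At baseline, where 0 members passed, DESeq2 called 2 (9.89%), voom 3 (22.5%), RLE normalization 1 (4.56%), no filter 3 (4.0%), only the groups of the comparison 1 (2.14%), the length offset 5 (6.38%) and leaving out 1 library 0 to 2 (1.53% to 7.04%; 2 members without P10 sham +3 days replicate 1, P10 baseline replicate 1 or P2 resected +3 days replicate 1). After sham surgery (0) DESeq2 (7.37%), voom (4.37%) and the length offset (4.21%) each called 1, no filter 2 (3.15%) and leaving out 1 library 0 to 1 (1.81% to 3.66%). After resection (0) voom (5.62%) and no filter (1.82%) each called 2. For resection against sham, no filter called 1 at P10, Col12a1 (0.263%). Over both ages voom called 2, Col6a3 and Col12a1 (0.315%), and no filter 2, Col8a1 and Col12a1 (0.332%). P10 baseline against P2 sham (0) had 1 call with DESeq2 (5.04%) or the length offset (2.32%), 3 with voom (6.39%), 2 with no filter (1.90%) and 0 to 2 without 1 library (0.376% to 2.59%; 2 members without P2 sham +3 days replicate 1). P10 sham against P10 baseline had 1 with no filter (0.522%).

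Deviations of same-numbered libraries had an r above 0.1 in 15 of 45 pairs between groups (median 0.0466, -0.135 to 0.378), and those of different-numbered libraries in 12 of 90 (median -0.0248, highest 0.208). Not every same-numbered pair was over 0.1, so the block is given here only. The replicate block called 1 member at baseline (6.23%) and 1 after sham surgery (3.93%). The replicate block with the length offset called 5 at baseline (8.17%), 4 after sham surgery (5.23%), 1 after resection (1.61%) and 2 for P10 baseline against P2 sham (2.98%). The length offset and its block were chosen after seeing the data.

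Of 37 log2 fold changes of single members that were followed, 31 never changed sign. The others were near 0 or lost their direction with 1 library: Col14a1 between the windows (0.06) became -0.02 with voom and ranged from -0.05 to 0.15 without 1 library, Col8a2 for resection against sham at P10 (0.11) became -0.03 with voom and ranged from -0.22 to 0.40, Col8a2 between the ages after resection from -0.61 to 0.12, and Col12a1 for P10 baseline against P2 sham from -1.31 to 0.41. The difference in resection effect ranged from -0.26 to 0.76 for Col8a1, from -1.13 to -0.40 for Col8a2 and from -0.52 to 1.13 for Col12a1. Without 1 library the Col6a2 to Col6a1 ratio ranged from -0.01 to 0.07 between the windows and from -0.04 to 0.07 for resection, the Col6a3 to Col6a1 ratio from -0.02 to 0.18 between the windows, the Col8a2 to Col8a1 ratio from -0.90 to -0.44 between the windows, and the Col14a1 to Col12a1 ratio for resection from -1.16 (past the threshold without P2 sham +3 days replicate 1) to -0.78. With the length trend removed, 3 ratio differences passed that had not: Col6a3 to Col6a1 between the windows (0.32) and for resection (0.36), and Col14a1 to Col12a1 for resection (-0.79). The cause of these changes was not tested.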
